A study of Homo sapiens with 8 samples.

Results

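The genes described here are 10 neighbours on human chromosome 17q12: ERBB2, GRB7, STARD3, PPP1R1B, PGAP3, MIEN1, TCAP, PNMT, IKZF3 and CDK12. They were taken by gene symbol from the array annotation and are 10 of 16922 symbols, with 17 of 24531 probes. Expression was measured on 8 Illumina bead arrays, 2 for each of 4 groups of ovarian cancer cells. The groups were SK-OV-3 with CSE1L siRNA, SK-OV-3 with control (scrambled) siRNA, TOV-21G with CSE1L siRNA and TOV-21G with control siRNA. All cells were harvested 72 h after transfection, so the control groups had been transfected too. SK-OV-3 is an established ovarian adenocarcinoma line known to carry extra copies of ERBB2, and TOV-21G is an established line from a clear cell carcinoma of the ovary. Each genotype is therefore 1 line, and copy number was not measured here. CSE1L codes for the nuclear transport factor that recycles importin alpha.

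ERBB2 codes for a receptor tyrosine kinase of the EGFR family that signals as a partner of the other ERBB receptors. In breast, gastric and some ovarian cancers a stretch of 17q12 around it is copied many times, and the genes beside ERBB2 are then often overexpressed together with it. The nearest neighbours, STARD3, PGAP3, MIEN1 and GRB7, belong to the core most often gained, while CDK12 and IKZF3 lie nearer the edges.

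The arrays detected 9206 to 9820 probes each (37.5% to 40.0%), with median signals of 156 to 202. Replicates correlated at 0.972 to 0.982 over the genes tested, which are not independent of each other. Of the epithelial and carcinoma markers, KRT8, KRT18 and PAX8 were detected on all 8 arrays, KRT19 on 6, WT1 on 4 and CDH1 on 2, while EPCAM and MUC16 were detected on none. In control SK-OV-3 the mean normalized log2 intensity was 12.78 for KRT19, 5.97 for WT1 and 5.01 for CDH1. In control TOV-21G it was 6.44 for KRT19, 8.85 for WT1 and 7.78 for CDH1. NAPSA, a clear cell marker, was detected on 1 array. Of 7 markers of other cell types, PTPRC, CD3E, PECAM1 and VWF were detected on no array, CD14 on 5, COL1A1 on 8 and DCN on 4. Those 7 markers have 12 probes, and the summed non-normalized signal of these probes includes background. A probe at the median of an array alone gives 156 to 202. The sum was 2089.6 to 2221 in silenced SK-OV-3 and 1899.8 to 1914 in control SK-OV-3. It was 4107 to 4658 in silenced TOV-21G and 3732 to 3768 in control TOV-21G. The part of these markers in the line differences was not tested. A level on these arrays is an average over the culture, so fewer expressing cells and less RNA per cell cannot be told apart.

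Of the 17 probes, 12 passed the filter of a detection p below 0.01 on at least 2 arrays, and they gave 8 tested genes. PPP1R1B and PNMT passed it through SK-OV-3 arrays alone, so they could enter the comparison only by being high there. The single probes of MIEN1 and TCAP were detected on no array. MIEN1, a small membrane-anchored protein linked to cell migration, had signals of 153 to 204 over the 8 arrays. TCAP, the titin cap protein of muscle, had signals of 127 to 201. Both ranges lie around the median signal of an array, which gives no fold and says nothing of the RNA below the probes' reach. ERBB2 had 3 probes, of which 2 were detected on no array, with signals of 137 to 180 and 120 to 201. IKZF3 had 2 probes, of which 1 was detected on no array, with signals of 125 to 179. PPP1R1B and GRB7 had 3 probes each, all of which passed.

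**Figure D1:**
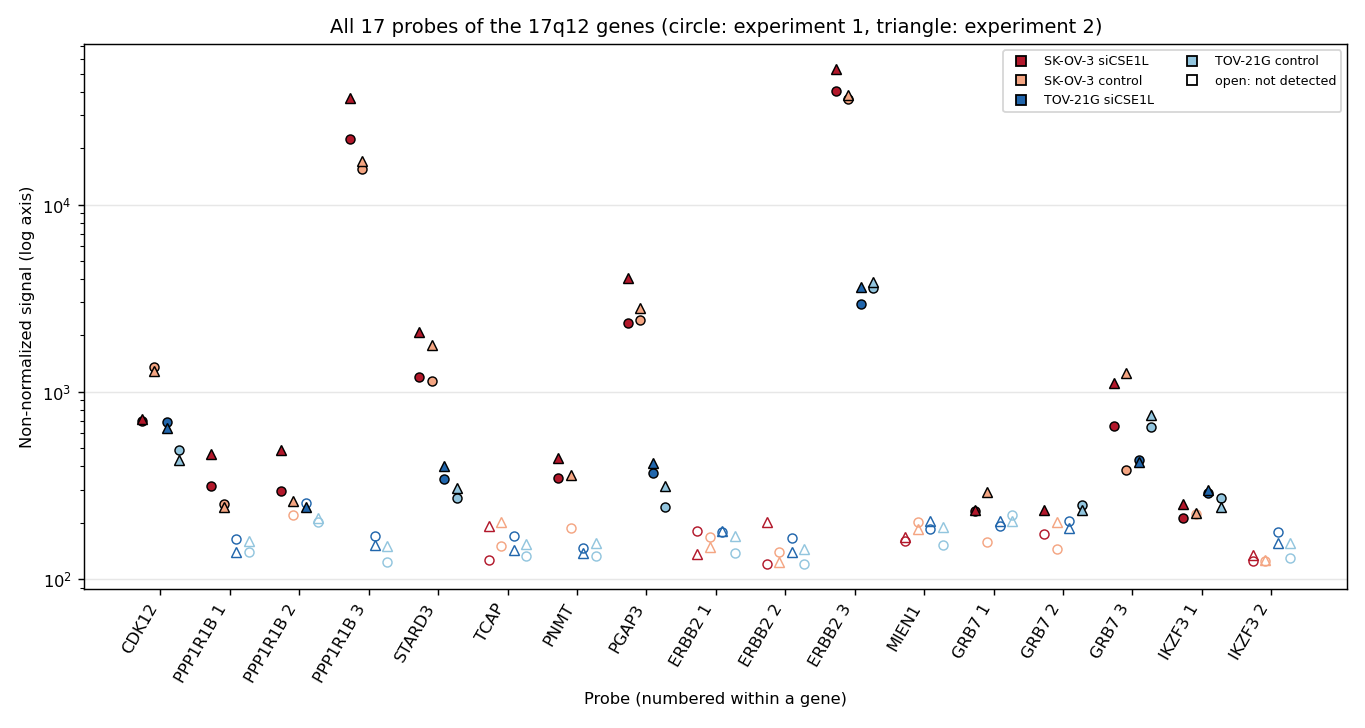
Non-normalized signal (log axis) of each of the 17 probes on the 8 arrays, by line, siRNA and experiment number, with open symbols for values not detected. The third ERBB2 probe and the third PPP1R1B probe lie far above background in SK-OV-3, while the first and second ERBB2 probes lie among the undetected values in both lines.

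The lines were compared first under control siRNA, which asks how strongly each line expresses this stretch of 17q12 when CSE1L is intact. Of the 8 tested genes, 6 were called higher in SK-OV-3, at a limma adjusted p below 0.05 after the Benjamini-Hochberg method over all 9377 genes and probes tested. In the same comparison 16.7% of everything tested was called higher, 17.1% lower and 33.8% either way. The 8 genes had a median log2 difference of 2.53, against 0.07 over all tested. It stayed at 2.53 when TOV-21G values of the 2 genes not detected there were raised to the lowest detected signal. PPP1R1B stayed above that median and PNMT below it, so this step is no test of the median. ERBB2, STARD3, PGAP3, CDK12, PPP1R1B and PNMT were the genes called, and GRB7 and IKZF3 were not. PPP1R1B and PNMT could enter only by being high in SK-OV-3, so their calls are not counted as support. Replicates are known only by an experiment number, so each p-value rests on how far these arrays scattered, which could be technical.

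ERBB2 itself, read by its detected probe, had normalized log2 intensities of 14.99 and 15.31 in control SK-OV-3, against 11.76 and 11.70 in control TOV-21G. Both SK-OV-3 arrays lay above both TOV-21G arrays, and the replicates of either line differed by far less than the lines. The difference was 3.42 on the log2 scale (SE 0.22), or 10.7-fold, with an adjusted p of 1.93e-05 in limma. ERBB2 was detected in TOV-21G as well, at non-normalized signals of 3593 and 3854, so the contrast was between a high and a moderate signal of 1 probe. In control SK-OV-3 the signals were 36722 and 38529, on arrays whose brightest probes reached 68826 and 68634.

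A promoter window of ERBB2 is shown because ERBB2 and PGAP3 have starts 37 bases apart on opposite strands, and both were high in SK-OV-3. The promoter of STARD3, a neighbour that was also high, is set beside it. Both windows run from 250 bases before to 50 bases after the gene start and come from RefSeq (GRCh38.p14), which held such a window for 5 of the 10 genes. ERBB2 lies on the plus strand at chr17:39687844-39688143 and STARD3 on the plus strand at chr17:39636894-39637193. Capitals mark matches on either strand to CCAAT, to CGGAAG (the core read by ETS factors) and to GCCNNNGGC (the AP-2 core).
ERBB2: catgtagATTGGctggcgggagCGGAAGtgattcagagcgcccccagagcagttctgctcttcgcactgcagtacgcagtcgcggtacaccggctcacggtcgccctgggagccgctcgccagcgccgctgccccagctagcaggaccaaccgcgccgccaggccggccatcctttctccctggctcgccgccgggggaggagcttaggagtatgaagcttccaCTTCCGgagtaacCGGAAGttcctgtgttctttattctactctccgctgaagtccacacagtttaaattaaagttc
STARD3: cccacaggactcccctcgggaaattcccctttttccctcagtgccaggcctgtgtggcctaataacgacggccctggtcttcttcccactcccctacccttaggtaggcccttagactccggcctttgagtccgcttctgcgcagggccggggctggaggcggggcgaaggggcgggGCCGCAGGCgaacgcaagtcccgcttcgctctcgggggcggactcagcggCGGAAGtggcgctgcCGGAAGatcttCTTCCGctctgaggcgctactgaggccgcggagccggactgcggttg
The ERBB2 window held 1 CCAAT match, on the reverse strand, and 3 CGGAAG matches. The STARD3 window held 3 CGGAAG matches and 1 GCCNNNGGC match. The ERBB2 and PGAP3 windows share 136 bases, and the PGAP3 window's 2 CGGAAG matches lie in the shared stretch, near both starts. The MIEN1 window held 1 CGGAAG match, and the CDK12 window held none of these motifs. Neither TATAAA nor an overlap between motifs was found in any of the 5 windows. Of 35116 human promoter windows of the same length, 34.6% held CCAAT, 11.5% TATAAA, 19.5% CGGAAG and 23.2% GCCNNNGGC. The CGGAAG motif was chosen after the sequences had been read. A match is a description of these letters at 1 annotated start per gene. The detected ERBB2 probe is annotated to a different transcript from that of an undetected ERBB2 probe. Whether the transcript read by the detected probe starts in the ERBB2 window was not tested.

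GRB7, an SH2 adaptor that docks on activated ERBB receptors, did not separate the lines as ERBB2 did. Its brightest probe read 7.89 and 10.29 in control SK-OV-3, against 8.89 and 9.14 in control TOV-21G. The SK-OV-3 arrays lay on either side of the TOV-21G arrays, 2.40 apart on the log2 scale. The difference of 0.08 (SE 0.65, 95% interval -1.42 to 1.57, adjusted p 0.944 in limma) is thus compatible with a large difference in either direction. Without the first SK-OV-3 control array it was 1.26 with an adjusted p of 0.0245, and without the second it was -1.12 with an adjusted p of 0.0385, so each of those calls rested on a single SK-OV-3 control array. The other 2 GRB7 probes were each not detected in 1 of the control groups, and neither passed when every probe was tested as itself (adjusted p 0.880 and 0.151).

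STARD3 and PGAP3 act on membrane lipids. STARD3 codes for a late endosomal protein that carries cholesterol between membranes. It read 9.77 and 10.83 in control SK-OV-3, against 7.08 and 7.32 in control TOV-21G. Both SK-OV-3 values were the higher ones, although they lay over 1 log2 unit apart. The difference was 3.10 (SE 0.41), or 8.58-fold, with an adjusted p of 0.000748. PGAP3, which remodels the lipid part of GPI anchors in the Golgi, read 10.88 and 11.57 in control SK-OV-3, against 6.80 and 7.37 in control TOV-21G. Its groups did not overlap either, and the 17.6-fold difference (log2 4.14, SE 0.36, adjusted p 8.33e-05) exceeded that of ERBB2 on this scale. Without background correction the difference was 3.24 for PGAP3, 2.34 for STARD3 and 3.37 for ERBB2, so the order of PGAP3 and ERBB2 turned with that step.

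PPP1R1B, PNMT and TCAP are known mainly from other tissues. PPP1R1B codes for an inhibitor of protein phosphatase 1, also called DARPP-32, which relays dopamine signals in the striatum. Its brightest probe read 13.61 and 14.23 in control SK-OV-3, against 4.94 and 4.96 in control TOV-21G, where it was not detected on either array. SK-OV-3 was at least 172-fold higher, taking the lowest detected signal of the TOV-21G arrays as the bound. Such a bound holds for this processing alone. The adjusted p of 1.31e-06 in limma is that of the fitted difference, not of the bound. PPP1R1B could enter the test only by being high in SK-OV-3. The other PPP1R1B probes were much dimmer. Neither was detected in control TOV-21G. One was detected on both control SK-OV-3 arrays and was at least 1.39-fold higher there (adjusted p 0.000397 when every probe was tested as itself). The other was detected on 1 of those arrays, so no bound is given (adjusted p 0.144).

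PNMT makes adrenaline from noradrenaline in the adrenal medulla. It read 5.91 and 8.02 in control SK-OV-3, against 5.06 and 5.03 in control TOV-21G, and was detected on 1 of the 2 SK-OV-3 arrays and on no TOV-21G array. The groups did not overlap, but the SK-OV-3 arrays lay further apart than the lower of them lay from TOV-21G. No fold is given, because 1 SK-OV-3 value also lay below detection. The fitted difference, which uses the values below detection as read, had an adjusted p of 0.0325 in limma. PNMT could enter the test only by being high in SK-OV-3. The adjusted p was 0.000329 without the first SK-OV-3 control array and 0.0369 without the second. Its call was lost when the detection filter was dropped (adjusted p 0.0529), and when either TOV-21G control array was left out (0.0981 and 0.103).

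CDK12 and IKZF3 act in the nucleus. CDK12, a kinase of the RNA polymerase II tail needed for transcription of long DNA repair genes, read 10.01 and 10.35 in control SK-OV-3, against 8.37 and 8.08 in control TOV-21G. The groups were clearly apart, by 1.95 (SE 0.25), or 3.86-fold, with an adjusted p of 0.000672. IKZF3, a lymphoid transcription factor also called Aiolos, read 6.51 and 6.82 in control SK-OV-3, against 7.10 and 6.63 in control TOV-21G. These groups overlapped near background, and the difference was -0.20 (SE 0.28, 95% interval -0.85 to 0.44, adjusted p 0.619).

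The 2 control SK-OV-3 arrays differed in 1 direction at this locus after normalization. The first lay below the second for 8 of 8 tested genes, by 0.31 to 2.40 on the log2 scale with a median of 0.65. Over all 9377 tested, the first was below for 50% and the median gap was 0.29. In the other groups the first array was lower for 5 of 8 genes in silenced SK-OV-3, 7 of 8 in silenced TOV-21G and 4 of 8 in control TOV-21G, with median gaps of 0.35, 0.36 and 0.24. The widest gaps in control SK-OV-3 were those of GRB7 and PNMT, given above.

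**Figure D2:**
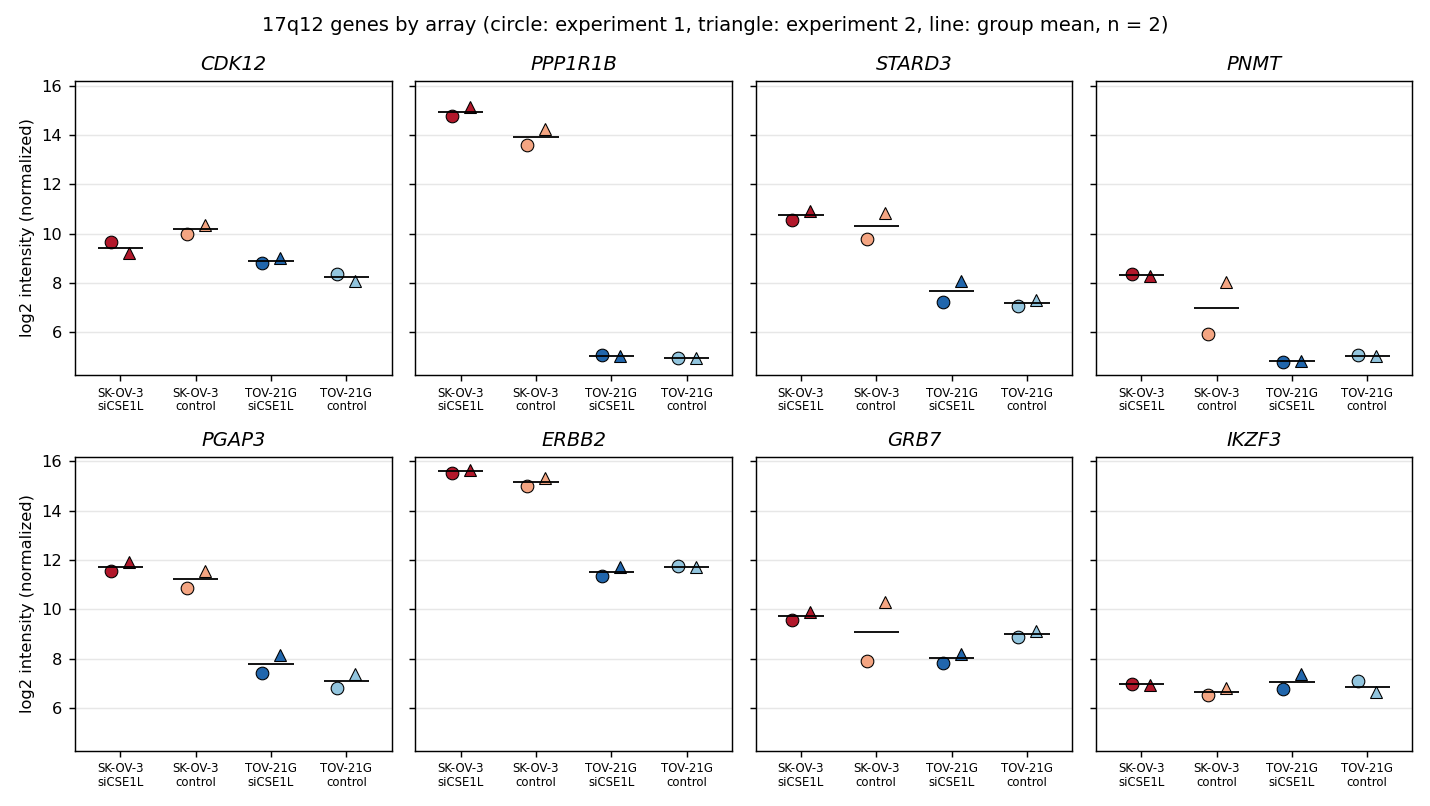
Normalized log2 intensity of the 8 tested genes on each array, by line and siRNA, with a line at each group mean (n = 2). ERBB2, PGAP3, STARD3, PPP1R1B, CDK12 and PNMT separate SK-OV-3 from TOV-21G under either siRNA, CDK12 by a small margin on the silenced arrays. How many of all tested genes separate in this way was not counted. GRB7 and IKZF3 overlap between the control groups, and the control SK-OV-3 arrays lie furthest apart for GRB7 and PNMT.

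The same difference between lines was then read from the 4 CSE1L siRNA arrays, none of which enters the control comparison, although both come from 1 fit with a shared spread. Of the 8 tested genes, 5 were called higher in silenced SK-OV-3 than in silenced TOV-21G, where 20.4% of all tested were called higher and 39.8% either way. The median log2 difference was 3.30, or 2.46 with PPP1R1B and PNMT at their bound, against 0.04 over all tested. ERBB2 read 15.53 and 15.65 in silenced SK-OV-3, against 11.36 and 11.70 in silenced TOV-21G, a 16.6-fold difference (log2 4.06, SE 0.22, adjusted p 7.89e-06). STARD3 read 10.56 and 10.94 in silenced SK-OV-3, against 7.24 and 8.10 in silenced TOV-21G. PGAP3 read 11.55 and 11.91 in silenced SK-OV-3, against 7.41 and 8.16 in silenced TOV-21G. Neither gene's groups overlapped, and the differences of 8.46-fold for STARD3 (adjusted p 0.000694) and 15.4-fold for PGAP3 (adjusted p 9.99e-05) lay within 1 SE of those under control siRNA.

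PPP1R1B read 14.77 and 15.12 in silenced SK-OV-3, against 5.09 and 5.02 in silenced TOV-21G, where it was again not detected. It was at least 350-fold higher in SK-OV-3 (adjusted p 1.27e-06). PNMT read 8.36 and 8.30 in silenced SK-OV-3, against 4.81 and 4.82 in silenced TOV-21G. It was detected on both silenced SK-OV-3 arrays and was at least 3.56-fold higher (adjusted p 0.00192). Both adjusted p-values are those of the fitted differences, not of the bounds, and both genes entered through SK-OV-3 arrays alone.

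The other genes were less settled on the silenced arrays. CDK12 read 9.66 and 9.20 in silenced SK-OV-3, against 8.82 and 8.999 in silenced TOV-21G. Its groups stayed apart by a small margin, and the difference of 0.52 (SE 0.25, 95% interval -0.06 to 1.10) had an adjusted p of 0.136. GRB7 read 9.56 and 9.91 in silenced SK-OV-3, against 7.83 and 8.20 in silenced TOV-21G. Here the groups did not overlap, and the difference of 1.72 (SE 0.65) had an adjusted p of 0.0679, which fell below 0.05 under 8 of 19 alternatives (0.00241 to 0.216 over all of them). IKZF3 read 6.98 and 6.95 in silenced SK-OV-3, against 6.77 and 7.37 in silenced TOV-21G, a difference of -0.11 (adjusted p 0.792).

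The genes on either side of the 10 were read in gene order from RefSeq. Toward the centromere 3 of 10 listed genes were tested, and 1 was called higher in control SK-OV-3, against 16.7% of all tested. It was FBXL20, a ubiquitin ligase subunit near CDK12, with a log2 difference of 1.61 (SE 0.30, adjusted p 0.00479). LASP1 (0.47, adjusted p 0.102) and RPL19 (-0.16, adjusted p 0.627), which lie further out, were not called. NEUROD2, which lies between CDK12 and PPP1R1B, and MED1, which lies between FBXL20 and CDK12, did not pass the filter.

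Toward the telomere 14 of 22 listed genes were tested, and 5 were called higher in control SK-OV-3 with 1 lower, against 16.7% and 17.1% of all tested. GSDMB, a pore-forming gasdermin close to IKZF3, differed by 2.12 (adjusted p 0.000898). ORMDL3, a regulator of sphingolipid synthesis, differed by 1.46 (adjusted p 0.0118). THRA, a thyroid hormone receptor, differed by 2.35 (adjusted p 8.56e-05), and CASC3, a part of the exon junction complex, by 1.35 (adjusted p 0.00249). RAPGEFL1 was at least 1.90-fold higher in SK-OV-3 (adjusted p 0.00230). It passed the filter through SK-OV-3 arrays alone and so could enter only by being high there. These calls rest on the brightest probe of each gene. For MED24 that probe differed by 0.20 and was not called (adjusted p 0.503). A dimmer MED24 probe, detected on all 8 arrays, differed by 1.42 (adjusted p 0.00290 in limma when every probe was tested as itself). GRB7 and IKZF3, with no call, thus lay between ERBB2 and GSDMB, which were called. IGFBP4, which codes for a secreted binder of insulin-like growth factors, ran the other way, with 7.59 and 6.97 in control SK-OV-3 against 13.78 and 13.02 in control TOV-21G. It was lower in SK-OV-3 by 6.12 on the log2 scale, a 69.4-fold difference with an adjusted p of 1.40e-05. The median difference was 2.53 over the 8 tested 17q12 genes, 0.78 over the telomeric list and 0.47 over the centromeric list. It was 0.20 over the 515 other tested genes of chromosome 17, of which 24.5% were called higher. On the silenced arrays the same 6 flank genes were called higher, and PSMD3 (1.21), TOP2A (3.15) and CDC6 as well. In that comparison 20.4% of all tested were called higher and 19.4% lower. IGFBP4 was again called lower, with a log2 difference of -7.04. CDC6 was at least 2.41-fold higher, a bound because it was not detected in silenced TOV-21G. Between silenced and control TOV-21G the fall of CDC6, of at least 1.82-fold, was not called (adjusted p 0.0540 in limma). TOP2A, the topoisomerase of dividing cells, read 14.99 and 14.97 in silenced SK-OV-3, against 12.31 and 11.35 in silenced TOV-21G. It was the 1 flank gene called after silencing, lower by 2.44 in TOV-21G (adjusted p 0.0203), and no flank gene was called in SK-OV-3.

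**Figure D3:**
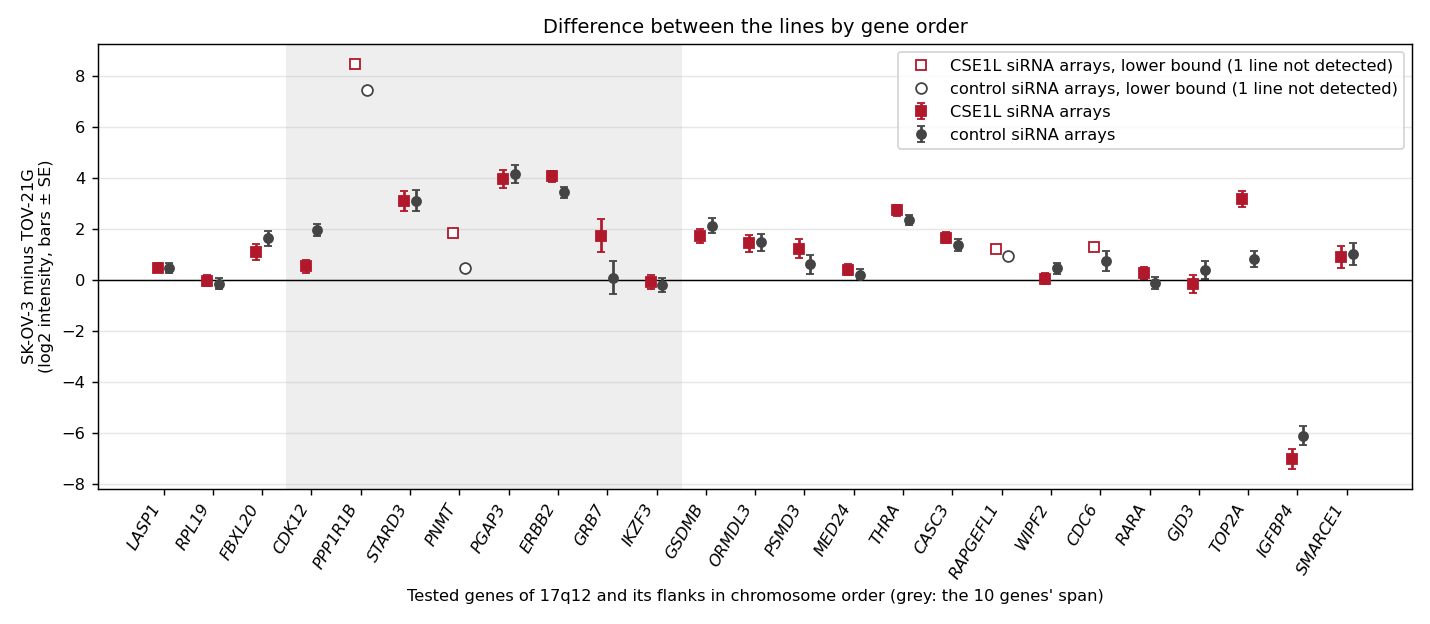
SK-OV-3 minus TOV-21G log2 difference, with its SE, for the tested genes of 17q12 and its flanks in chromosome order, on the CSE1L siRNA arrays and the control siRNA arrays, with open symbols for lower bounds where 1 line was not detected. The open PNMT symbol for the control arrays is not a strict bound, because 1 SK-OV-3 value also lay below detection. The PPP1R1B bounds stand far above the other values, STARD3, PGAP3 and ERBB2 lie between 3 and 4.2, and the IKZF3 values lie close to 0 beside GSDMB at 1.71 (silenced) and 2.12 (control).

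CSE1L silencing was the study's own treatment, and the targeted gene was read first. CSE1L had 10.51 and 8.99 in silenced SK-OV-3, against 12.04 and 12.56 in control SK-OV-3. It had 8.80 and 7.72 in silenced TOV-21G, against 13.02 and 11.65 in control TOV-21G. Every silenced array lay below every control array of its line. The change of -2.55 (SE 0.63) in SK-OV-3 had an adjusted p of 0.262 in limma, and that of -4.08 (SE 0.63) in TOV-21G had 0.0257.

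In SK-OV-3 none of the 8 tested genes was called after silencing, where limma called 0.0107% of all tested (1 of 9377, with 940 at an unadjusted p below 0.05). At that unadjusted threshold 3 of the 8 passed, PPP1R1B and PNMT as higher and CDK12 as lower. The median change of the 8 was 0.48, against -0.01 over all tested. With median scaling the median over all tested was -0.15. ERBB2 read 15.53 and 15.65 in silenced SK-OV-3, against 14.99 and 15.31 in control SK-OV-3, so both silenced arrays lay above both controls. The change of 0.44 (SE 0.22, 95% interval -0.08 to 0.95, adjusted p 0.570) did not pass the test, and the interval leaves room for no change or for a rise of nearly 1 log2 unit.

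PPP1R1B gave the lowest unadjusted p of the 8, with 14.77 and 15.12 in silenced SK-OV-3 against 13.61 and 14.23 in control SK-OV-3. The groups did not overlap, and the change of 1.03 (SE 0.26) had an adjusted p of 0.262. One dimmer probe read 8.15 and 8.40 in silenced SK-OV-3, against 6.89 and 7.04 in control SK-OV-3. The other read 7.98 and 8.47 in silenced SK-OV-3, against 6.49 and 7.28 in control SK-OV-3, so all 3 probes lay higher on every silenced array. PNMT read 8.36 and 8.30 in silenced SK-OV-3, against 5.91 and 8.02 in control SK-OV-3, and its change of 1.36 (SE 0.56, adjusted p 0.472) was 0.31 without the first control array and 2.42 without the second.

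STARD3 and PGAP3 gave changes of 0.45 (95% interval -0.49 to 1.39, adjusted p 0.789) and 0.50 (-0.33 to 1.33, adjusted p 0.720) in SK-OV-3. STARD3's control array 2, at 10.83, lay between its silenced values, and PGAP3's, at 11.57, likewise, so both genes' groups overlapped. GRB7 overlapped as well, with 9.56 and 9.91 in silenced SK-OV-3 against 7.89 and 10.29 in control SK-OV-3 (change 0.64, adjusted p 0.812). IKZF3 read 6.98 and 6.95 in silenced SK-OV-3, against 6.51 and 6.82 in control SK-OV-3, and its difference of 0.30 (SE 0.28, adjusted p 0.795) did not pass. CDK12 was the 1 gene of the 8 with a negative change, at 9.66 and 9.20 in silenced SK-OV-3 against 10.01 and 10.35 in control SK-OV-3. Both silenced values were below both controls, and the change of -0.74 (SE 0.25, 95% interval -1.32 to -0.17, an interval not corrected for the number of genes) had an adjusted p of 0.373.

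In TOV-21G silencing also called none of the 8, where limma called 3.17% of all tested (297 of 9377, 102 higher, which is 1.09%, and 195 lower, which is 2.08%, or 67 higher and 230 lower with median scaling). With no adjustment 1 of the 8 passed, CDK12, in the positive direction, where 1862 of 9377 had an unadjusted p below 0.05. ERBB2 read 11.36 and 11.70 in silenced TOV-21G, against 11.76 and 11.70 in control TOV-21G. The groups met at 11.70, and the change was -0.20 (SE 0.22, 95% interval -0.71 to 0.32, adjusted p 0.699). CDK12 read 8.82 and 8.999 in silenced TOV-21G, against 8.37 and 8.08 in control TOV-21G, so both silenced values were the higher ones. Its change was 0.69 (SE 0.25, 95% interval 0.11 to 1.26, adjusted p 0.185).

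GRB7 lay lower on both silenced TOV-21G arrays, with 7.83 and 8.20 in silenced TOV-21G against 8.89 and 9.14 in control TOV-21G. The change of -0.998 (SE 0.65, 95% interval -2.50 to 0.50) had an adjusted p of 0.452, with a spread shared with the widely split SK-OV-3 controls. STARD3 gave 0.47 (adjusted p 0.590), PGAP3 0.70 (adjusted p 0.340) and IKZF3 0.20 (adjusted p 0.755). The brightest PPP1R1B probe and the PNMT probe were not detected in either TOV-21G group, so no fold is given for them.

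**Figure D4:**
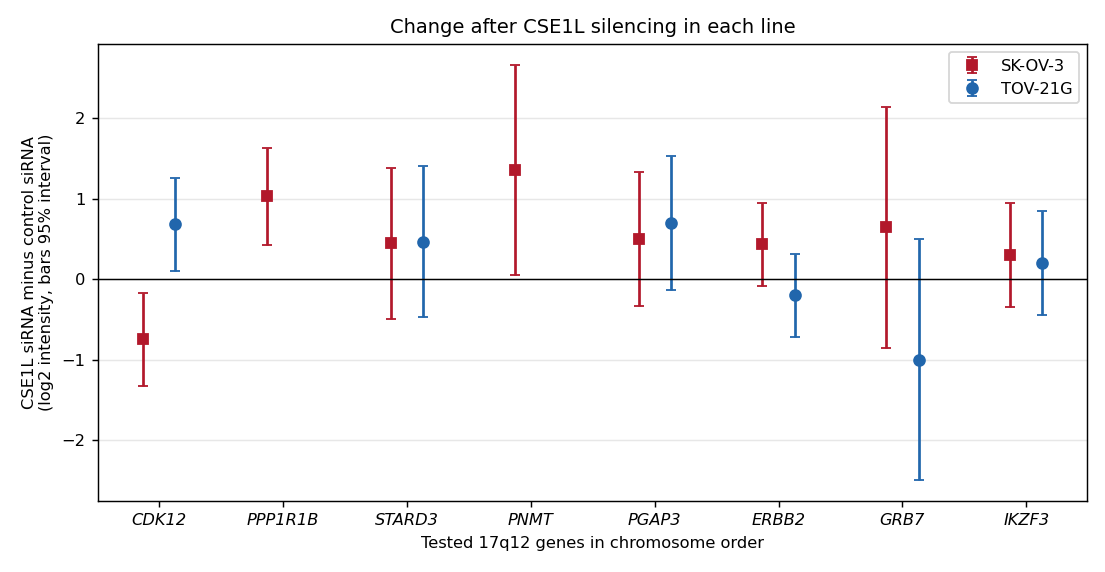
Change in log2 intensity, CSE1L siRNA minus control siRNA, for the 8 tested genes in SK-OV-3 and in TOV-21G, with 95% intervals from limma that are not corrected for the number of genes, and with no value for PPP1R1B and PNMT in TOV-21G, where neither was detected. The CDK12 change was -0.74 in SK-OV-3 and 0.69 in TOV-21G, and no change of the 8 passed the adjusted test in either line.

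Whether silencing acted differently in the lines was tested as the SK-OV-3 change minus the TOV-21G change. None of the 8 was called, and 0% of all tested were called by limma (0 of 9377, with 948 at an unadjusted p below 0.05). CDK12 had the lowest unadjusted p of the 8, with a difference between changes of -1.43 (SE 0.35, 95% interval -2.25 to -0.61, adjusted p 0.227). CDK12's line difference of 0.52 on the silenced arrays was thus not shown to differ from the 1.95 on the control arrays. For ERBB2 the difference between changes was 0.63 (SE 0.32, 95% interval -0.10 to 1.36, adjusted p 0.550), and for GRB7 it was 1.64 (SE 0.92, adjusted p 0.602). STARD3 (-0.02) and PGAP3 (-0.20) lay nearest 0 in size with IKZF3 (0.10), and all 3 changed sign under other settings or when an array was left out.

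The receptors and signalling partners of ERBB2 were counted from a fixed list of 18, of which 11 were tested. Between the control groups 1 was called higher in SK-OV-3 and 1 lower, where 33.8% of all tested were called either way. SOS1, the exchange factor that loads RAS with GTP, was higher by 1.14 (SE 0.20, adjusted p 0.00351). ERBB3, the kinase-poor partner with which ERBB2 signals most strongly, was lower by 1.57 (SE 0.23, adjusted p 0.00121), at 6.91 and 6.81 in control SK-OV-3 against 8.26 and 8.61 in control TOV-21G. The ERBB3 groups were well apart in the direction opposite to ERBB2. EGFR, the founding receptor of the family, read 11.78 and 10.99 at its brightest probe in control SK-OV-3, against 11.20 and 11.53 in control TOV-21G. These groups overlapped (log2 difference 0.02, SE 0.29, adjusted p 0.968). A dimmer EGFR probe read 9.12 and 8.35 in control SK-OV-3, against 7.85 and 8.05 in control TOV-21G, with no overlap. Its difference of 0.78 had an adjusted p of 0.069 in limma when every probe was tested as itself. On the silenced arrays ERBIN (1.01), PTPN11 (0.94) and SOS1 (0.72) were called higher in SK-OV-3 and ERBB3 (-1.55) and SHC1 (-1.08) lower, so 5 of 11 were called where 39.8% of all tested were. After silencing, 0 of 11 were called in either line. The median of the 11 was 0.17 between the control groups.

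Of 6 factors known to bind the ERBB2 promoter, 3 were tested and 2 were called, both lower in control SK-OV-3 than in control TOV-21G, where 17.1% of all tested were called lower and 33.8% either way. ELF3, an epithelial ETS factor, read 5.32 and 5.54 in control SK-OV-3, where it was not detected, against 9.96 and 9.95 in control TOV-21G. It was at least 9.65-fold lower in SK-OV-3 (adjusted p 0.000531). On the silenced SK-OV-3 arrays ELF3 was detected at 9.41 and 7.77, and that change had an adjusted p of 0.170. TFAP2A, which codes for AP-2 alpha, was lower by 0.84 at its brightest probe (adjusted p 0.0200), and its 4 probes differed in sign. ETV4, another ETS factor, differed by -0.65 (adjusted p 0.415). TFAP2B, TFAP2C and YY1 were not detected by their probes on any array. Binding of the 6 factors to the ERBB2 window shown above was not tested.

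The genes whose levels followed ERBB2 most closely over the 8 arrays were AMTN (Pearson r 0.999), PPP1R1B (0.998) and NAV1, HERC5 and CORO2A (0.997 each). The other 17q12 genes ranked far lower among the named genes. PGAP3 (0.982) was at rank 179, STARD3 (0.976) at 240 and PNMT (0.920) at 790. CDK12 (0.802) was at rank 1669, GRB7 (0.584) at 2745 and IKZF3 (-0.23) at 4989. These correlations describe 8 arrays that fall into 2 lines, so any gene with a wide gap between the lines scores high, and no p is given.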

How the data were processed

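Total RNA from 8 cultures was hybridised as biotin-labelled cRNA, per the labels' protocols. Per the file headers, the deposited main table gives intensity without normalization, as a linear bead signal for each probe on each array. Each deposited intensity has a detection p-value beside it, per the file headers, which ranks the probe against the negative controls of its array. BeadStudio 2 is the software named in the submitters' processing notes. Intensity values that the authors had normalized were deposited as well and served as an alternative. How they were normalized is not given in the sources used here.

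Signals were background corrected with normexp from the detection p-values (offset 16), put on the log2 scale and quantile normalized with limma 3.58.1 in R 4.3.3. Probes with a detection p below 0.01 on at least 2 arrays were kept, 10888 of 24531. Each gene was represented by its probe of highest mean, which left 8373 named genes and 1004 unnamed probes. Of all probes, 21838 had 1 symbol and 2693 had none. limma fitted 4 group means to all 8 arrays (4 residual and 3.87 prior degrees of freedom), and p-values were adjusted by Benjamini-Hochberg over all 9377 tested, with a threshold of 0.05. The line differences and the change in each line share arrays, so they are not independent. Where a gene was not detected on either array of 1 group, its fold is a bound, set by the lowest signal detected on those arrays. In the text a bound is given only where both arrays of the other group were detected. The adjusted p beside a bound is that of the fitted difference, not of the bound. Gene order, chromosome and promoter windows came from RefSeq, to which 8370 of the 8373 named genes were matched. Sequences were read with Python 3.11.15, and figures were drawn with matplotlib 3.10.9. The pipeline was tested on simulated data. The precision is limited by 2 arrays a group.

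All 10 genes are named with every probe, as is CSE1L. Of each list (both flanks, ERBB partners, promoter factors) the members past the threshold are named, up to 8, or the 3 of largest change where none passed. The 5 genes most correlated with ERBB2 are named too. The genes and lists were chosen with earlier results of these data known. List members that did not pass the filter or had no matched probe were not analysed here. The alternatives were other background corrections, median scaling, the authors' values, other filters, all probes, other spreads and thresholds, fewer arrays and a replicate block.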

Additional observations from a re-analysis of the deposited data

How the results depend on the processing

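The higher levels of ERBB2, STARD3, PGAP3, CDK12 and PPP1R1B in control SK-OV-3, and of ERBB2, STARD3, PGAP3, PPP1R1B and PNMT in silenced SK-OV-3, kept their direction and their call under every alternative in which they were fitted, with ERBB2 between 3.25 and 3.61 (control) and between 3.90 and 4.21 (silenced). With detection required in all 8 arrays PPP1R1B, PNMT and IKZF3 were not tested, which left 4 called between the control groups and 3 between the silenced groups. The values normalized by the authors gave smaller control differences for PGAP3 (3.01), STARD3 (2.13) and CDK12 (1.43). PNMT's control call was also lost with only the 4 arrays (adjusted p 0.0589), without either silenced SK-OV-3 array (0.0511 and 0.0507) and at a threshold of 0.01. GRB7's control difference was -0.027 with median scaling. The STARD3 difference between changes was 0.038 with an offset of 50, 0.12 without background correction and 0.11 with the authors' values, and that of PGAP3 was 0.075 and 0.11 with the last 2. The cause of these shifts was not tested.

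Leaving out 1 array at a time gave ranges of -1.12 to 1.26 for GRB7 and -0.43 to 0.030 for IKZF3 between the control groups, and -0.41 to 0.20 for IKZF3 between the silenced groups. It gave -0.079 to 0.98 for STARD3 and -0.55 to 1.84 for GRB7 in SK-OV-3 silencing, and -0.10 to 0.50 for IKZF3 in TOV-21G silencing. The differences between changes ran from -0.55 to 0.51 for STARD3, -0.57 to 0.17 for PGAP3 and -0.20 to 0.40 for IKZF3. A group left with 1 array was assumed to vary like the others.

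Counts over all tested moved more. Between the control groups 3166 fell to 1996 with detection in all 8 arrays and 1874 at the 0.01 threshold, and ran from 2141 to 3247 with 1 array left out. Between the silenced groups the count of 3732 became 2449 and 2294 in those settings, and 2538 to 3608 with 1 array left out. SK-OV-3 silencing called 1 gene, and it called 3 with an offset of 50, 9 without background correction, 2 with median scaling, 13 with the authors' values, 4 with detection in all 8 arrays and 11 with a trend and robust spread. It called 0 with no filter, all probes, the 0.01 threshold, only 4 arrays, the replicate block or any array left out. TOV-21G silencing called 527 without background correction and 515 with trend and robust, 0 at the 0.01 threshold or with only 4 arrays, and 0 to 182 with 1 array left out. The difference between changes called 5, 10, 1 and 11 genes without background correction, with the authors' values, with detection in all 8 arrays and with trend and robust, and 0 with any array left out. Of the 17q12 genes, 5 to 7 were called between the control groups and 5 to 6 between the silenced groups with 1 array left out, and 0 in either silencing comparison or in their difference under every alternative run.

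Same-numbered arrays deviated together with a correlation of 0.126 in SK-OV-3 and 0.561 in TOV-21G, and -0.137 between the control groups of the lines. The labels do not say what the number marks, and with the number as a replicate block TOV-21G silencing called 590 and SK-OV-3 silencing 0. With the block the 17q12 genes called between the control groups were unchanged, and GRB7 (adjusted p 0.0386) was added between the silenced groups. The share of all tested called in these comparisons under the block is not given here. The added call is therefore not read as a result about GRB7. A slide block was not run because no slide is given, and the fit on only 4 arrays was not run for the difference between changes. Probes near background, such as those of IKZF3, MIEN1 and TCAP, limit what can be read at this signal.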
